A study of Mus musculus with 6 samples.

Results

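The cyclin-dependent kinase inhibitor family comprises 7 mouse genes, and all 7 were chosen by symbol from the 27179 genes counted in sorted mammary tumor fibroblasts. Cdkn1a, Cdkn1b and Cdkn1c form the CIP/KIP group of 3 genes, and Cdkn2a, Cdkn2b, Cdkn2c and Cdkn2d the INK4 group of 4 genes. The study asked how cancer-associated fibroblasts (CAFs) that lack the surface protein CD34 differ from those that carry it. Tumors arose in raGFP-Wnt1 mice, which carry an MMTV-Wnt1 transgene (FVB/NJ) and a heterozygous Pdgfra H2B-GFP reporter (C57BL/6), and Lin- GFP+ cells from each of 3 tumors were sorted into a CD34 negative and a CD34 positive fraction, giving 6 bulk RNA-seq libraries. Both groups share the transgene, the reporter and the tumor setting, and no normal or hyperplastic tissue entered the comparison. The MMTV promoter drives Wnt1 mainly in mammary epithelium. The age of these mice was not given in the sources used here, and the series design text calls the fractions CD34-high and CD34-low.

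CIP/KIP proteins bind cyclin-CDK complexes, above all those with CDK2, and can halt the cell cycle when abundant. INK4 proteins bind CDK4 and CDK6 and keep cyclin D from activating them, which leaves the retinoblastoma protein unphosphorylated and E2F targets silent. p21, encoded by Cdkn1a, is a classical p53 target, and p16, p15 and p21 are widely used marks of senescent fibroblasts. Cdkn2a also encodes p19ARF, which is read in another frame and inhibits MDM2 instead of a CDK.

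Libraries are named negative or positive 1, 2 or 3 after their fraction and tumor. They held 16238059 to 86609267 counts. Negative library 3 stood apart, with counts for 14314 genes against 16253 to 19220 in the other libraries. Expression of Cd34 averaged 74.3 ± 30.2 CPM (counts relative to library size) where the label was negative and 948 ± 571 CPM where it was positive (SD, n = 3 each). Summed CPM of 5 fibroblast markers was 23891 to 39368 in the negative and 25535 to 33585 in the positive fraction, most of it from Col1a2. The other 4 fibroblast markers (Dcn, Lum, Pdgfra and Igfbp5) were lower in the negative fraction of every tumor, and Dcn (-1.12, adjusted p = 0.00154) and Lum (-0.73, adjusted p = 0.0140) passed limma-voom with the tumor as a block. Sums of 5 epithelial markers were 139.6, 114.7 and 46.8 CPM in negative libraries 1, 2 and 3 against 128.0, 75.5 and 16.3 CPM in the positive ones, higher in the negative fraction of each tumor, although none of the 5 genes passed. Sums of 3 endothelial, 5 macrophage and 5 lymphocyte markers were at most 14.8, 16.2 and 6.54 CPM in any library. Sums of 2 pericyte markers (Rgs5 and Mcam) were 41.5 to 49.7 CPM in negative and 4.23 to 17.6 CPM in positive libraries, and those of 4 Schwann cell markers 14.8 to 22.0 against 7.20 to 12.1 CPM. Sums of 4 muscle markers were 2.97 to 13.3 against 1.52 to 1.86 CPM, and those of 2 keratinocyte markers 1.05 to 3.85 against 7.11 to 10.8 CPM. In limma-voom with the block, the pericyte marker Mcam (2.15, adjusted p = 0.00251) and the muscle marker Des (2.32, adjusted p = 0.0362) passed as higher. The keratinocyte marker Krtdap (-6.58, adjusted p = 0.0215) passed as lower. Myf5 and Ms4a1 were at 0 in every library. The part of these markers in the differences of the inhibitor genes was not tested.

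All 7 inhibitor genes were measured well above the low-count filter, the smallest count of any of them being 132. CPM values are counts scaled by library size and by a composition factor (TMM), and fold changes are log2 values of CD34 negative over CD34 positive from limma-voom with Benjamini-Hochberg adjustment over 14855 genes. A first fit had no tumor term, and the study's methods, which name voom and limma, do not say whether the tumor entered the model. A second fit took the tumor as a block, because both fractions of a pair came from the same tumor. The paper's list of genes higher in both CD34 negative CAFs and tumor fibroblasts is far longer than the 3 that rose in the first fit. In the second fit 642 rose, so the first fit should not be read as the study's own test. With a tumor left out, the blocked fit estimates a gene's own variance poorly, and its p-values lean on the variance of all genes.

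Between the fractions, Cdkn1a, Cdkn2a, Cdkn2b and Cdkn2d were higher in CD34 negative CAFs of every tumor, and Cdkn1b and Cdkn1c were lower in each. Without the tumor block, 0 of 7 genes passed an adjusted p of 0.05, where 0.121% of all genes did. An unadjusted p under 0.05 was reached by 3 of 7 genes in that fit, against 14.3% of all genes. Without the block, edgeR's quasi-likelihood test also called 0 genes of the family and 0.0606% of all genes. At an unadjusted p under 0.05, that test had 4 of 7 members and 1855 of 14855 genes. DESeq2 without the block called 3 of 7 and 4.7% of all genes. With the block, 3 of 7 rose and 1 fell in limma-voom, while 4.32% of all genes rose, 4.25% fell and 8.57% were called in either direction. With the block, edgeR called 3 of 7 and 3.87% of all genes, and DESeq2 called 4 of 7 and 11.7%. With the tumor as a random effect, limma-voom called 3 of 7 and 4.73% of all genes. The log2 ratio had the same sign in the 3 tumors for 6 of 7 members, against 46.3% of all genes. The 3 values of one fraction did not overlap those of the other for 4 of 7 members, all higher in the negative fraction. Of all genes, 20.5% did not overlap in either direction, and 10.4% were higher without overlap. Since these are bulk libraries, more cells that express a gene and more RNA of it per cell cannot be told apart.

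**Figure D1:**
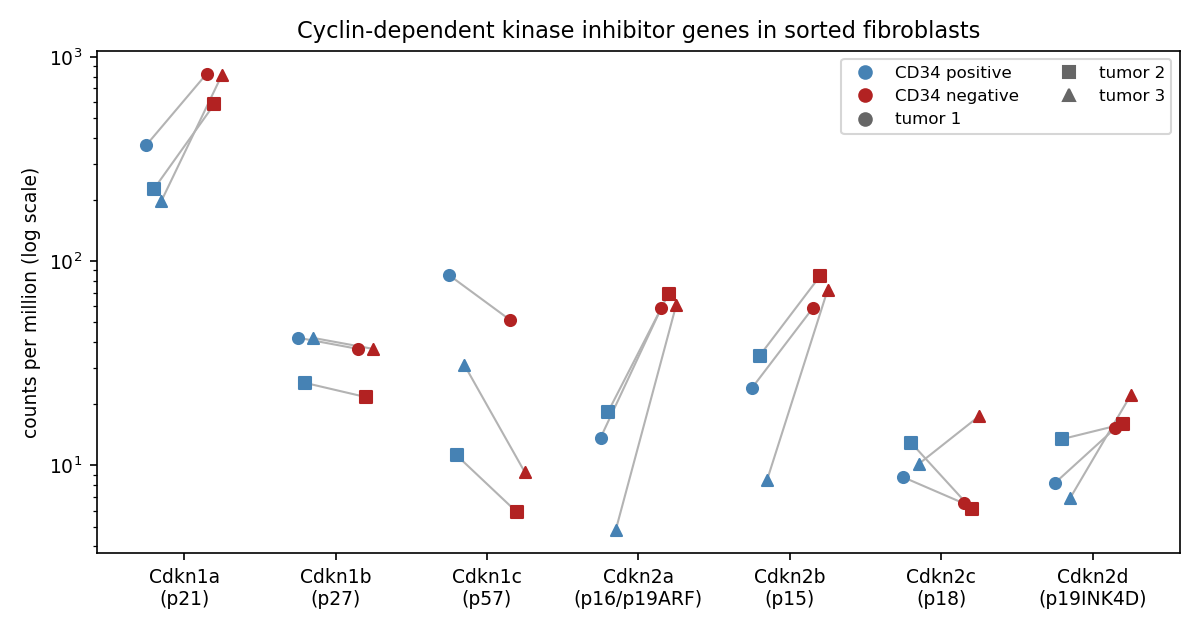
Expression of the 7 inhibitor genes in CPM (log axis), with 1 point per library, blue for CD34 positive and red for CD34 negative CAFs, and a line joining the fractions of each tumor. All red points lie above all blue points for Cdkn1a, Cdkn2a, Cdkn2b and Cdkn2d, and the 3 lines fall for Cdkn1b and Cdkn1c.

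Stretches just upstream of the annotated starts of Cdkn1a, Cdkn2a and Cdkn2b are shown because these are the genes that rose with the block, and because Cdkn1a and Cdkn2a each have 2 starts that the gene-level counts merge. The sequences are the 150 bases before each RefSeq start (GRCm38.p6), less any that GENCODE places in an exon of the gene, 5′ to 3′ on the gene's strand, with capitals for matches on either strand to the SP1 box GGGCGG, the E2F motif TTTCCCGC or the p53 consensus half-site. The TATA box TATAAA, the E-boxes CACGTG (of the MYC type) and CAGCTG (of the E-protein type) and a further E2F motif, TTTGGCGC, were also searched, and 12.4%, 6.02%, 13.0% and 0.417% of all windows hold them.
Cdkn1a upstream start, chr17:29090829-29090975, plus strand: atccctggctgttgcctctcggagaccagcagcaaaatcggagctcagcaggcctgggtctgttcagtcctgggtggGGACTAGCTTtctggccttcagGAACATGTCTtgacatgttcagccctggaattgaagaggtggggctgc
Cdkn1a downstream start, chr17:29093619-29093768, plus strand: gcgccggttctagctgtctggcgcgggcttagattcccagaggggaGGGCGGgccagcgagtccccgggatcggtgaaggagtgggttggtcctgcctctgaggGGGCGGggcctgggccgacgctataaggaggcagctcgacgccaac
Cdkn2a upstream start (p19ARF), chr4:89294654-89294769, minus strand: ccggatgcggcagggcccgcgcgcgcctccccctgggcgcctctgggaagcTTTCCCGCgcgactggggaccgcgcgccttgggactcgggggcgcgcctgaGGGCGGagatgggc
Cdkn2a downstream start (p16), chr4:89282193-89282342, minus strand: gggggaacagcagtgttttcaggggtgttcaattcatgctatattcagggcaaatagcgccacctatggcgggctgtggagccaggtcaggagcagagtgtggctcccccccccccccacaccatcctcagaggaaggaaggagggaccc
Cdkn2b start (p15), chr4:89311040-89311182, minus strand: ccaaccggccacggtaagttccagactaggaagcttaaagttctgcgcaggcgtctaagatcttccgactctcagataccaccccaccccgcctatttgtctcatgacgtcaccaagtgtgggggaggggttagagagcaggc
In the 250 bases searched before each start, the upstream Cdkn1a start held 2 p53 half-sites, which 7.13% of all 32851 upstream windows hold at least once. The downstream Cdkn1a start held 2 GGGCGG boxes, present in 32.7% of all windows. The p19ARF start of Cdkn2a held 2 GGGCGG boxes, 1 of them within the bases left out above, and 1 TTTCCCGC, the latter present in 0.895% of windows, and had a GC content of 78.4% against a median of 52.4%. The p16 start and the Cdkn2b start held none of the letters searched, with GC contents of 60.0% and 53.6%. CpG dinucleotides numbered 40 before the p19ARF start, 7 before the p16 start and 12 before the Cdkn2b start, against a median of 6. Among the members that did not rise, the window of Cdkn2d held 1 p53 half-site and 3 GGGCGG boxes. The Cdkn2c-202 start held 3 GGGCGG boxes and the Cdkn1b start 1, while the Cdkn2c-201 start held none of the letters searched. Such matches were thus not particular to the genes that rose. A match describes the sequence and does not show that a factor binds there. Of the 7 genes, 6 had an entry among the promoter sequences used, and Cdkn1c had none.

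Among the CIP/KIP genes, Cdkn1a (gene 12575, chr17:29090979-29100722, plus strand, protein-coding) was the most abundant member. It was at 828, 587 and 816 CPM in negative libraries 1, 2 and 3 and at 369, 225 and 197 CPM in positive libraries 1, 2 and 3. Every negative value thus lay above every positive one. The ratio within a tumor was 2.24, 2.61 and 4.15. Its log2 fold change was 1.51 ± 0.28 (SE) without the block, with an adjusted p of 0.0769, and 1.54 ± 0.17 with the block, with an adjusted p of 0.00143. Without the tumor of negative library 3, the blocked value was 1.26 with an adjusted p of 0.000269. A transcript on the opposite strand, AC167363.2, shares 273 of the 3553 exonic bases of Cdkn1a and had no row of its own in the counts.

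Cdkn1b (gene 12576, chr6:134920401-134925525, plus strand) encodes p27, which restrains CDK2 in resting cells and is controlled largely by protein degradation. Its values were 37.1, 21.6 and 37.1 CPM in the negative and 42.2, 25.3 and 42.1 CPM in the positive libraries. Tumor 2 was low in both fractions, and the groups overlapped. Within the tumors the ratio of negative to positive was 0.880, 0.853 and 0.882, a narrow range. The log2 fold change was -0.11 ± 0.30 without the block (adjusted p = 0.898) and -0.20 ± 0.15 with it (adjusted p = 0.504). The sign was the same in the 3 tumors, and the difference did not pass either test.

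Cdkn1c (gene 12577, chr7:143458339-143461059, minus strand) encodes p57, an imprinted inhibitor expressed from the maternal allele. It varied more between tumors than any other member, with 51.6, 5.87 and 9.24 CPM in the negative and 85.3, 11.2 and 31.0 CPM in the positive libraries. The highest tumor exceeded the lowest by 8.80-fold in the negative and 7.63-fold in the positive fraction. The groups overlapped, and tumor 1 was highest in both fractions. Within each tumor the negative fraction was lower, at 0.605, 0.525 and 0.298 of the positive one. Without the block the log2 fold change was -0.64 ± 0.90 (adjusted p = 0.780), and with the block Cdkn1c fell by 1.01 ± 0.23 on the log2 scale (adjusted p = 0.0250). Without tumor 3 the blocked value was -0.80 (adjusted p = 0.0111). The call with the block was also made by DESeq2 (adjusted p = 0.000546) but not by edgeR (adjusted p = 0.0520), and with the tumor as a random effect the adjusted p was 0.501. An antisense gene, Gm44732, shares 625 of the 2039 exonic bases of Cdkn1c and had no row in the counts, and since the library kit does not keep strand, reads of the 2 cannot be told apart.

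Among the INK4 genes, Cdkn2a (gene 12578, chr4:89274473-89294619, minus strand) differed most between the fractions. It was at 58.6, 69.2 and 61.0 CPM in the negative libraries, a spread of 1.18-fold from lowest to highest. The positive libraries held 13.6, 18.3 and 4.80 CPM, a spread of 3.81-fold. The groups did not overlap, and the positive library of tumor 3 was the lowest of the 6. The ratio within a tumor was 4.30, 3.79 and 12.7. The log2 fold change was 2.34 ± 0.39 without the block (adjusted p = 0.0735) and 2.28 ± 0.29 with it (adjusted p = 0.00233). Without tumor 3 it was 1.96 with the block (adjusted p = 8.25e-05), and without negative library 3 alone it was 2.40 without the block (adjusted p = 0.158).

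The counts of Cdkn2a join 2 transcripts with different proteins. In the GENCODE annotation of the same build, the p16 and the p19ARF transcripts share 575 of 1172 exonic bases (49.1%), while 277 bases (23.6%) belong to p16 alone and 320 (27.3%) to p19ARF alone. The starts of these transcripts are 12.5 kb apart, and the start of Cdkn2b lies 16.4 kb upstream of the p19ARF start. Which of the 2 products differed cannot be read from counts per gene.

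**Figure D2:**
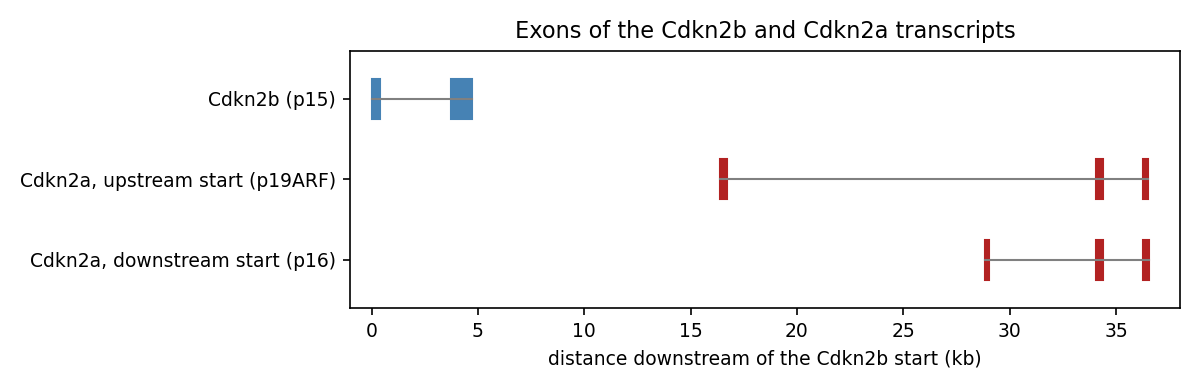
Exons (boxes) of the Cdkn2b transcript and the 2 Cdkn2a transcripts, drawn to scale by their distance in kb downstream of the Cdkn2b start. The Cdkn2a transcripts have separate first exons, 12.5 kb apart from start to start, and share the exons that follow, while Cdkn2b is a separate gene on the same strand.

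Cdkn2b (gene 12579, chr4:89306289-89311032, minus strand) encodes p15, an INK4 protein known as a target of TGF-beta signaling. It was at 58.6, 84.5 and 72.3 CPM in the negative and 23.9, 34.3 and 8.47 CPM in the positive libraries, without overlap. In negative library 1 its count equalled that of Cdkn2a, 3290 for each gene. The ratio within a tumor was 2.45, 2.46 and 8.54, with tumor 3 again the largest. The log2 fold change was 1.73 ± 0.43 without the block (adjusted p = 0.142) and 1.69 ± 0.29 with it (adjusted p = 0.00883), and 1.29 with the block when tumor 3 was left out (adjusted p = 0.000459). A long noncoding RNA of the RefSeq annotation, Gm12610, spans the gene and had no row in the counts.

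Cdkn2c (gene 12580, chr4:109660876-109666756, minus strand) encodes p18 and was the only member whose sign differed between tumors. It was at 6.50, 6.11 and 17.4 CPM in the negative and 8.73, 12.9 and 10.1 CPM in the positive libraries. Negative library 3 was the highest of the 6, and the other negative libraries were the lowest. The log2 fold change was -0.45 ± 0.41 without the block (adjusted p = 0.654) and -0.26 ± 0.37 with it (adjusted p = 0.746). Without negative library 3 it was -0.83 (adjusted p = 0.286), and without tumor 3 the blocked value was -0.86 (adjusted p = 0.0513).

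Cdkn2d (gene 12581, chr9:21288459-21291421, minus strand) encodes the INK4 protein p19INK4D, which is unrelated to p19ARF. It was at 15.2, 15.9 and 22.0 CPM in the negative and 8.17, 13.4 and 6.88 CPM in the positive libraries. The groups did not overlap, although the values of tumor 2 were close, with a ratio of 1.18 against 1.86 and 3.19 in tumors 1 and 3. The log2 fold change was 0.70 ± 0.31 without the block (unadjusted p = 0.0535, adjusted p = 0.357) and 0.73 ± 0.30 with it (adjusted p = 0.181), so the difference did not pass the threshold.

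**Figure D3:**
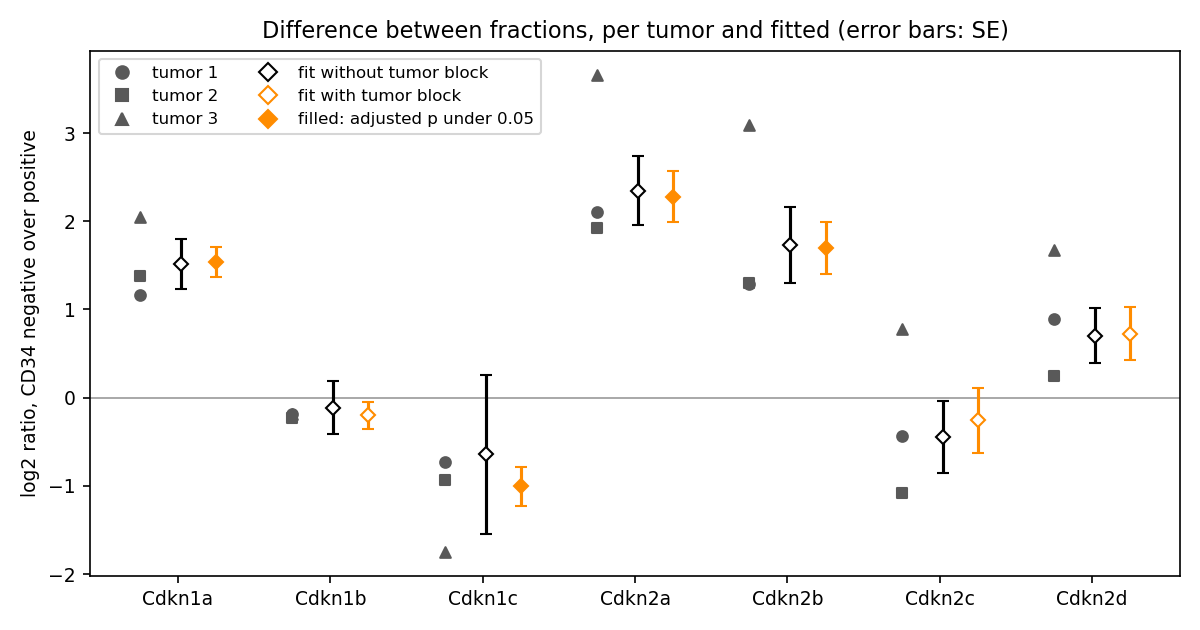
Log2 ratio of CD34 negative over CD34 positive CAFs for each inhibitor gene, with grey points for the 3 tumors and diamonds for the fits without (black) and with (orange) the tumor block (bars are SE, filled diamonds have an adjusted p under 0.05). Cdkn1a, Cdkn2a, Cdkn2b and Cdkn1c are filled only in the fit with the block, and tumor 3 has the highest ratio for Cdkn1a, Cdkn2a, Cdkn2b and Cdkn2d.

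Levels were compared between genes per length, as CPM per kilobase (RPKM) with the gene lengths of the deposited table. In CD34 negative CAFs, Cdkn1a was at 367 ± 67.0 RPKM (SD, n = 3), followed by Cdkn2a at 55.4 ± 4.89 and Cdkn2b at 51.5 ± 9.31 RPKM. The last 2 overlapped in their values. Cdkn2d (13.9 ± 2.92 RPKM), Cdkn1b (13.3 ± 3.73), Cdkn1c (11.5 ± 13.1) and Cdkn2c (9.04 ± 5.79) followed with overlapping values. In CD34 positive CAFs Cdkn1a was again highest, at 130.2 ± 45.6 RPKM. Behind it the order was Cdkn1c (21.9 ± 19.8 RPKM), Cdkn2b (15.96 ± 9.34), Cdkn1b (15.2 ± 4.03), Cdkn2a (10.8 ± 6.02), Cdkn2c (9.57 ± 1.92) and Cdkn2d (7.47 ± 2.73), with each gene overlapping its neighbour. The place of Cdkn1c rested on tumor 1, without whose library it was at 10.9 RPKM in the positive fraction, below Cdkn2b (15.4) and Cdkn1b (14.0), and at 3.89 RPKM in the negative one. With exon lengths from GENCODE, which are longer for Cdkn1a, Cdkn1b and Cdkn2c, Cdkn1a was at 209 and 74.2 RPKM in the negative and positive fraction, Cdkn1b at 7.01 and 8.02 RPKM, and Cdkn2c at 3.72 and 3.94 RPKM. In the positive fraction Cdkn2a, at 10.4 RPKM with these lengths, then came before Cdkn1b and not after it.

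The summed level of the 7 genes was 562, 441 and 561 RPKM in negative libraries 1, 2 and 3 and 287, 190.4 and 155 RPKM in the positive ones. The mean was 522 ± 69.6 RPKM against 211 ± 68.2 RPKM (SD, n = 3), a ratio of 2.47. Cdkn1a made up most of this sum. Without it, the other 6 genes summed to 155 ± 3.71 RPKM in the negative and 80.8 ± 23.3 RPKM in the positive fraction, and the negative sums stayed within 152 to 159 RPKM. The INK4 genes summed to 129.9 ± 15.9 against 43.8 ± 19.1 RPKM and the CIP/KIP genes to 392 ± 79.2 against 167 ± 66.2 RPKM. These sums, and the shares below, used the deposited gene lengths and depend on them. With the GENCODE lengths Cdkn1a was lower, at 209 and 74.2 RPKM in the negative and positive fraction.

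The makeup of that sum also differed. Cdkn1a contributed 70.0 ± 3.82% in the negative and 61.4 ± 2.70% in the positive fraction. The share of Cdkn2a was 10.8 ± 2.57% against 5.11 ± 2.98%, and that of Cdkn2b 10.2 ± 3.23% against 7.61 ± 4.74%. Cdkn1b contributed 2.51 ± 0.41% against 7.63 ± 3.15%, Cdkn1c 2.09 ± 2.29% against 9.53 ± 6.17%, and Cdkn2c 1.70 ± 0.96% against 4.92 ± 1.89%. Cdkn2d had the higher level in the negative fraction of every tumor but the lower share in each, at 2.68 ± 0.49% against 3.76 ± 1.68%. The shares of Cdkn1a, Cdkn1b and Cdkn2a did not overlap between the fractions, while those of Cdkn1c, Cdkn2b, Cdkn2c and Cdkn2d did. Shares are parts of a whole, so a share can fall while the level of its gene differs little, as for Cdkn1b and Cdkn2c. The share of the INK4 group as a whole also overlapped, at 19.8, 31.6 and 24.7% in the negative and 15.1, 33.1 and 15.996% in the positive libraries.

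**Figure D4:**
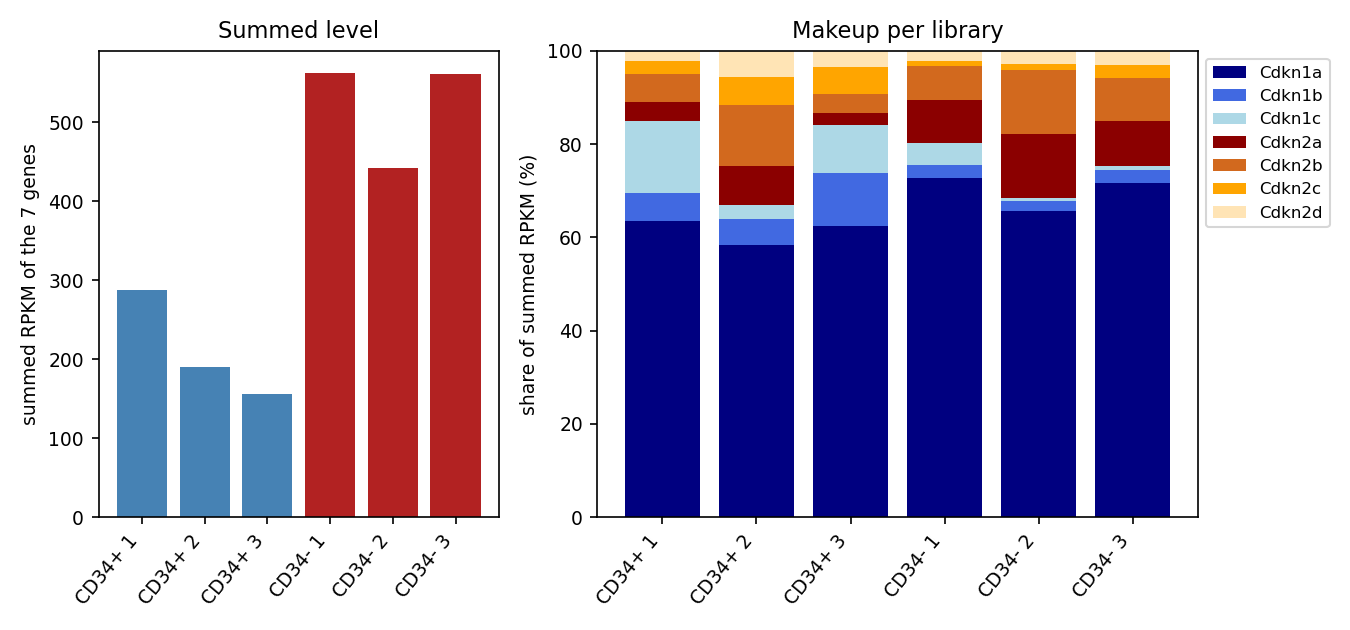
Left, summed RPKM (deposited gene lengths) of the 7 inhibitor genes per library, blue for CD34 positive and red for CD34 negative CAFs (bars start at 0). Right, the percent of that sum taken by each gene, where Cdkn1a fills 58.4 to 63.5% of the positive and 65.7 to 72.7% of the negative bars.

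The ratio of Cdkn2a to Cdkn2b, neighbours on chromosome 4, was 1.23, 1.00 and 1.03 in the negative and 0.699, 0.653 and 0.695 in the positive libraries, in RPKM. The mean was 1.09 ± 0.12 against 0.682 ± 0.026 (SD, n = 3), and the groups did not overlap. This ratio was examined after the values of both genes had been seen, and it is given without a test.

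Over the 6 libraries, which share the group difference and the tumors, voom log2 CPM of Cdkn2a and Cdkn2b correlated at r = 0.986. Cdkn2d correlated with them at 0.911 and 0.917, and Cdkn1a at 0.897 and 0.830. Cdkn1b and Cdkn1c correlated with each other at 0.774 and had negative r with these 4 genes. Among 8943 other genes, the patterns most like each member were those of Adcy7, Mpg and Rnf41 for Cdkn1a (r = 0.99987 for the first), Kctd10, Rhbdf2 and Susd6 for Cdkn2a (0.99957) and Bgn, Nuak1 and Lama1 for Cdkn2b (0.99944). For the others they were Crebbp, Zfp622 and Zfp827 for Cdkn1b (0.997), Dock10, Thra and Gla for Cdkn1c (0.991), Sgk3, Iws1 and Atp5l for Cdkn2c (0.993) and Ndufa4l2, Tmem87a and Higd2a for Cdkn2d (0.994). With so few libraries and so many genes the best r was high in general, its median over all candidate genes being 0.993 and its 95th percentile 0.998. The best r of Cdkn2a and Cdkn2b exceeded that of 99.6% and 99.4% of candidates, and that of Cdkn1a lay at the very top of them. Scaled by library totals alone, the first gene of each member was the same, with r = 0.999 for Adcy7, 0.997 for Kctd10 and 0.998 for Bgn, but for 5 of 7 members neither of the other genes stayed among the first 3.

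The genes on which the inhibitors act were described next, from lists of the pathway. Of 12 CDK and cyclin genes, 3 fell and 0 rose with the block, the median log2 fold change over the list without the block being -0.72 against -0.03 over all genes. Those that fell act in S phase and mitosis, namely Ccna2 (-2.28, adjusted p = 0.00642), Cdk1 (-1.84, adjusted p = 0.0468) and Ccnb2 (-1.30, adjusted p = 0.0225). Cdk1 had a count of 0 in negative library 3, where Ccnb2 had 408, so its value there lay at the floor. The direct targets of INK4 proteins did not pass, with blocked log2 fold changes of -0.16 for Cdk4 (adjusted p = 0.598) and -0.29 for Cdk6 (adjusted p = 0.755). Their partners Ccnd1 and Ccnd2 were at 0.28 (adjusted p = 0.494) and 0.30 (adjusted p = 0.194). Of 13 retinoblastoma and E2F genes, 0 passed limma-voom with the block, 2 had an unadjusted p under 0.05 without it, and DESeq2 with the block called 2. Rb1 was at 0.77 (adjusted p = 0.178).

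Of 8 proliferation genes, 3 fell with the block, and the list median in the fit without it was -2.56. That median leans on near-zero counts in negative library 3, where Aurkb, Bub1 and Plk1 had counts of 0, 1 and 1. Mki67, the usual mark of cycling cells, was at 15.6 ± 9.47 CPM in the negative and 56.7 ± 45.6 CPM in the positive fraction, with a blocked log2 fold change of -1.86 (adjusted p = 0.00233). Top2a (-2.16) and Birc5 (-1.84) were the others. Of 11 genes for inhibitor turnover, 1 fell, Cks1b (-1.26, adjusted p = 0.0120), a cofactor in p27 degradation. Its partner Skp2, the F-box protein that recognizes p27, was at -0.93 (adjusted p = 0.179). Cdkn3, which belongs to neither the CIP/KIP nor the INK4 group and encodes a phosphatase, was at -2.43 (adjusted p = 0.178).

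Of 14 genes of the p53 axis, 9 rose and 0 fell with the block, and 2 rose without it (Phlda3 and Ptprv), with a median of 1.19. Ptprv rose by 2.45, Sesn2 by 1.53, Bbc3 by 1.49 and Phlda3 by 1.44 on the log2 scale with the block. Mdm2, the p53 ligase that p19ARF inhibits and itself a p53 target, was at 420.0 ± 98.3 against 164 ± 46.8 CPM, a blocked log2 fold change of 1.38 (adjusted p = 0.00912). Trp53 mRNA was at 34.1 ± 1.22 against 32.5 ± 3.29 CPM, a log2 fold change of 0.05 (adjusted p = 0.892).

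Of 14 genes known to activate inhibitor transcription, 2 rose with the block and 0 fell. These were Foxo3 (1.00, adjusted p = 0.00793), a forkhead factor known to activate Cdkn1b, and Cebpa (0.70, adjusted p = 0.0482). Of 16 repressors of inhibitor genes, 5 rose and 1 fell. Myc, which represses Cdkn1a and Cdkn2b, fell from 455 ± 28.7 CPM in the positive to 239.9 ± 45.7 CPM in the negative fraction (-0.94, adjusted p = 0.00380). Id1 (1.09), Tbx2 (1.02), Tbx3 (0.81) and Id3 (0.79) rose, and they too are known as repressors of Cdkn2a or Cdkn1a. The Polycomb genes Bmi1 (0.19, adjusted p = 0.553) and Ezh2 (-0.44, adjusted p = 0.237), which silence the Cdkn2a and Cdkn2b locus in many cells, did not pass.

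**Figure D5:**
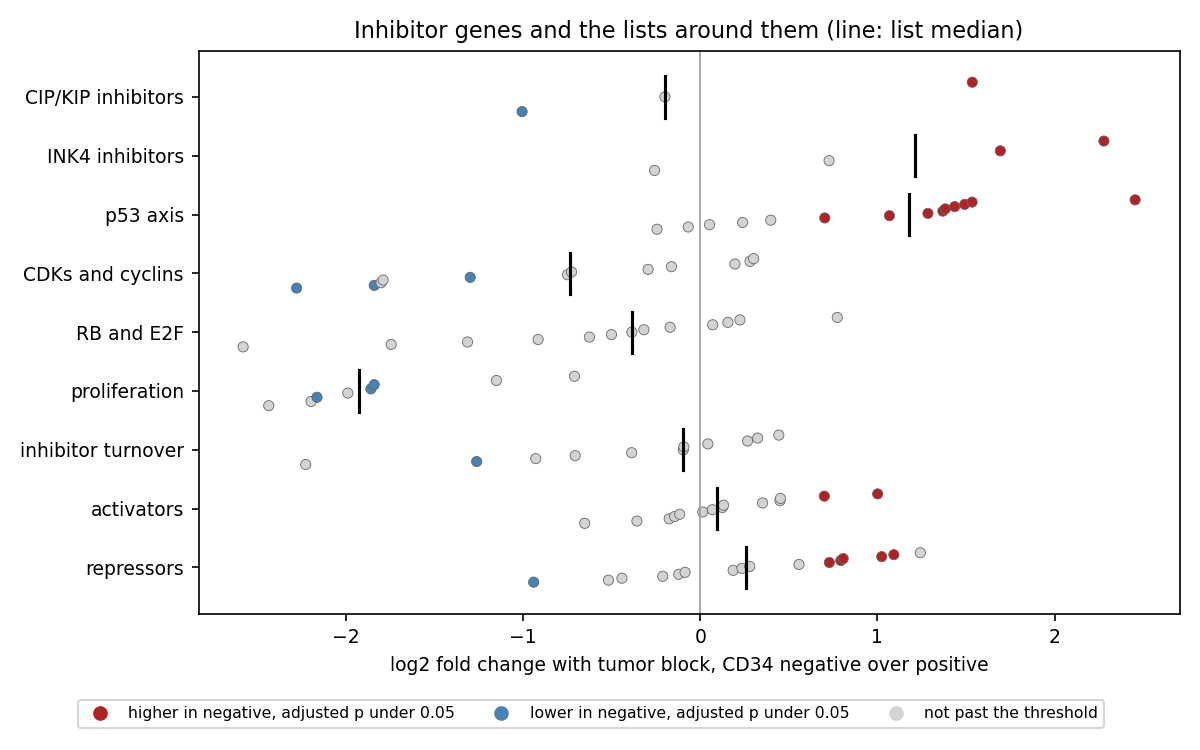
Log2 fold change with the tumor block for the inhibitor genes and 7 gene lists around them, 1 point per gene, red where higher and blue where lower in CD34 negative CAFs with an adjusted p under 0.05. The black line is the median of each list in this fit, and 9 of 14 p53 genes are red while 3 of 8 proliferation genes are blue.

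Genes beside the inhibitors on the chromosome did not pass. Mtap, next to Cdkn2a, was at 39.1 ± 7.84 against 33.2 ± 11.8 CPM (0.21 with the block, adjusted p = 0.511), and it was the only one of 3 neighbours of that locus with enough counts to test. Around Cdkn1c, 6 of 8 neighbours were tested, and limma-voom called 0 with or without the block (0 at an unadjusted p under 0.05, and 1 by DESeq2 with the block). Kcnq1ot1, the noncoding RNA of that imprinted domain, was at 2.30 ± 2.14 against 4.14 ± 1.64 CPM (-0.53, adjusted p = 0.751), and the imprinted gene Phlda2 had too few counts to test. Of 10 neighbours of the other members, 9 were tested and 0 were called by limma-voom with or without the block (1 at an unadjusted p under 0.05, and 0 by edgeR and DESeq2).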

How the data were processed

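RNA from FACS-sorted fractions was sequenced with the TruSeq RNA v2 kit on a NextSeq 500. The authors aligned reads with Rsubread to GRCm38 (mm10) and counted them per NCBI gene with featureCounts, and the deposited values are raw counts with replicates kept apart. Strand setting and handling of multiply mapped reads are not given in the sources used here. Groups and tumor numbers came from the sample titles. A low-count filter, filterByExpr at a minimum count of 10, kept 14855 of 27179 genes and all 7 members. As in the study's methods, counts were scaled by TMM and the fractions compared by voom and limma. Those methods do not say whether the tumor was in the model. The first fit, which left it out, called far fewer genes higher in the negative fraction than the paper reports. P-values were two-sided and adjusted by Benjamini-Hochberg, with a threshold of 0.05. Software was limma 3.58.1, edgeR 4.0.16 and DESeq2 1.42.0 under R 4.3.3, and the tests were tried on simulated data.

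The tumor number pairs the libraries because both fractions came from the same tumor. Deviations from the group means correlated at 0.373, 0.350 and 0.219 between the libraries of tumors 1, 2 and 3. Libraries of one group differed far beyond sampling noise, so each was counted as a separate replicate. The 3 tumors, each giving both fractions, are the replicates. Without the block, a p-value sets the difference against the spread between libraries of a fraction. With the block, it sets the difference against the spread of the within-tumor difference.

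The members and gene lists were chosen with earlier results of these data known. Named genes are the 7 members, up to 4 per direction of each pathway list with the largest fold change among those called with the block, 16 fixed genes, and per member the 3 genes with the highest r among genes whose log2 CPM averages 3 or more. Counts per kilobase used the gene length in the deposited table. Sequences are from RefSeq (GRCm38.p6), and transcript structures from GENCODE of the same build. Alternatives covered the tool, the block, the scaling, the filter, the annotation, sample weights, and each library and tumor left out. The tumor as a random effect and GENCODE gene lengths were chosen after seeing the data.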

Additional observations from a re-analysis of the deposited data

How the results depend on the processing

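The count of inhibitor genes called depended on how the tumor was handled. In limma-voom it was 0 of 7 without and 4 with the block, and it was 3 with DESeq2, 3 with edgeR and the block, 4 with DESeq2 and the block, 3 with the tumor as a random effect and 1 with sample weights. It stayed at 0 with edgeR, limma-trend, other size factors, library totals alone, no filter, and genes with a symbol. With the block, log2 fold changes were 1.54 for Cdkn1a, -1.01 for Cdkn1c, 2.28 for Cdkn2a and 1.69 for Cdkn2b, and the block changed the call of no other member. DESeq2 gave 1.48, 2.35 and 1.68 for Cdkn1a, Cdkn2a and Cdkn2b, edgeR with the block 1.53, 2.53 and 1.87, and the random effect 1.53, 2.36 and 1.75, all called. DESeq2 with the block gave 1.52, -1.14, 2.53 and 1.86 for Cdkn1a, Cdkn1c, Cdkn2a and Cdkn2b, and sample weights called Cdkn2a alone (2.54). The cause of these changes was not tested.

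Leaving out each library or tumor without the block called between 0 and 1 members, namely Cdkn1a without positive library 1 (1.81) or without tumor 1 (1.72). With the block and without a tumor, 4 of 7 members were called each time. Of all genes, 7.61%, 5.82% and 13% were called without tumors 1, 2 and 3. These calls lean on the variance of all genes, since so few libraries estimate a gene's own variance poorly. The log2 fold changes in the same order were 1.72, 1.61 and 1.26 for Cdkn1a and -1.41, -1.05 and -0.80 for Cdkn1c. They were 2.26, 2.88 and 1.96 for Cdkn2a and 1.72, 2.21 and 1.29 for Cdkn2b. Without the block, the values with a library or tumor left out spanned 1.21 to 1.81 for Cdkn1a, -0.45 to 0.14 for Cdkn1b, -1.73 to -0.0049 for Cdkn1c, 1.88 to 3.13 for Cdkn2a, 1.20 to 2.49 for Cdkn2b, -0.89 to 0.026 for Cdkn2c and 0.39 to 1.27 for Cdkn2d. The sign of Cdkn1b, which no fit called, turned without negative library 2 (0.14), positive library 1 (0.0070) or positive library 3 (0.054). Leaving out a single library breaks a pair, so these fits compare partly different tumors, and both ends of the Cdkn1c range come from such fits. With the block and without tumors 1, 2 and 3, Cdkn1b stayed at -0.20, -0.19 and -0.22. The sign of Cdkn2c, also never called, turned without tumor 2, to 0.026 without and 0.39 with the block.

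Over all genes, limma-voom called 18, against 1273 with the block, 9 with edgeR, 698 with DESeq2, 575 and 1733 with edgeR and DESeq2 and the block, 161 with sample weights, 32 with library totals alone, 703 with the random effect, 0 to 86 with a library or tumor left out, and 1134, 851 and 2019 with the block and without tumors 1, 2 and 3. Of the 88 pathway genes, 2 were called, against 24 with the block, 0 with edgeR, 12 with DESeq2, 14 and 30 with edgeR and DESeq2 and the block, 1 with limma-trend, 13 with the random effect, 0 to 2 with a library or tumor left out, and 20, 13 and 36 with the block and without tumors 1, 2 and 3. GENCODE lengths moved the RPKM of Cdkn1a to 209 and 74.2 in the negative and positive fraction, of Cdkn1b to 7.01 and 8.02, and of Cdkn2c in the positive fraction to 3.94. Depth did not limit the members, since their smallest count was 132, but 3 tumors limit the precision of every difference.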
